A study of Mus musculus with 6 samples.

Results

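The fibroblast growth factor (FGF) family was examined in the corneal epithelium as a set of 33 genes out of the 17866 in the deposited table. They were picked by a rule on symbols: every gene named Fgf, Fgfr, Spry or Spred followed by a number, together with Fgfrl1, Fgfbp1, Dusp6, Etv4 and Etv5. The set held 13 secreted ligands, 4 intracellular FGFs, 1 ligand carrier, 5 receptors, 8 feedback inhibitors and 2 transcription factors induced by ERK. RNA-seq was performed on separated corneal epithelium of C57BL/6 mice aged 6 months, in 3 wild-type (WT) libraries and 3 libraries labelled Rela-/- (KO). Rela encodes the p65 subunit of NF-κB. According to the study's methods the mutant animals were Krt14-Cre; Rela f/f, so the deletion was limited to cells in which the Krt14 promoter has been active, and any other cell in the sample kept Rela. The controls were of the same age, and whether they carried the floxed alleles or Cre is not given in the sources used here.

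FGFs are small signalling proteins that bind FGF receptors (FGFRs) together with heparan sulfate on the cell surface. The activated receptor tyrosine kinase phosphorylates the adaptor FRS2 and turns on the Ras-MAPK cascade, which ends in the kinase ERK. ERK induces the ETS factors Etv4 and Etv5 and also its own brakes: Dusp6, a phosphatase that removes phosphate from ERK, and the Sprouty and Spred proteins, which act between the receptor and Raf. In the eye, FGFs made by the stroma act on the overlying epithelium through the epithelial splice form of FGFR2, and this signal is used in lacrimal gland, eyelid and corneal growth.

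Library totals lay between 20158404 and 20880347 estimated counts, and 3 counts, used as a floor, were worth from 0.137 to 0.152 CPM (counts scaled to a common library total with TMM factors), which covers counting error only. Rela fell from 1871, 1844 and 1855 counts in WT to 318, 223 and 313 in KO. The corneal markers Krt12, Pax6, Aldh3a1 and Tkt were abundant in WT and all 4 were lower in KO, whereas all 4 epidermal markers (Krt1, Krt10, Lor and Flg) and all 4 markers of conjunctiva and mucosa (Krt13, Krt4, Krt19 and Muc5ac) were higher. The label of corneal epithelium therefore held in WT, and the KO libraries carried a mixture of markers. In such bulk samples, fewer cells of a type and less RNA per cell cannot be told apart. The p-values given here measure the spread between these 6 samples.

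Of the 33 genes, 17 had enough counts to be tested, and 12 were at or under 3 counts in all 6 libraries. The difference between genotypes was tested with edgeR, adjusted over all 13305 genes tested and called at an adjusted p under 0.05. In KO, 5 members were higher (Fgf22, Fgfr1, Fgfr3, Fgfrl1 and Spred3) and 8 were lower (Fgf9, Fgfbp1, Spry1, Spry2, Spred1, Spred2, Dusp6 and Etv5). The corresponding shares of all tested genes were 31.8% higher and 30.2% lower, 62.0% in either direction, so calls were common everywhere. With the threshold of the study, an adjusted p of 0.001 or less and a fold change of at least 2, 5 members were called (Fgf22, Fgfr1, Spred1, Spred3 and Spry1), against 19.8% of all tested genes, and this count fell to 2 (Fgfr1 and Spred1) without WT replicate 1 and to 3 without WT replicate 3. Of the tested members, 4 passed the filter on low counts through high values in mainly 1 genotype (Fgf1, Fgf9, Fgf22 and Spred3), so these counts describe the members that passed and not all 33. The median log2 fold change of all tested genes was 0.0063 on the CPM scale and -0.33 when TPM (transcript abundance after division by gene length, scaled to a common total) was compared instead, so differences on the TPM scale are read relative to that shift.

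**Figure D1:**
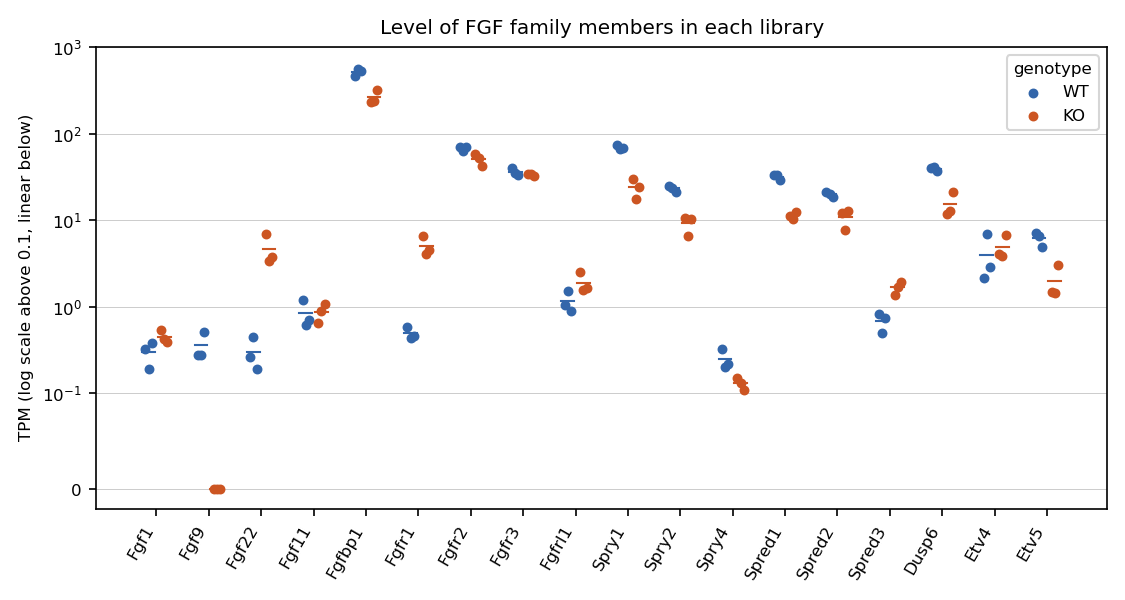
Level of 18 family members in each library, in TPM on an axis that is logarithmic above 0.1 and linear below, with 1 point per library and a short bar at the mean of 3 libraries. Fgfbp1 lies at the top in both genotypes, and Fgfr1 and Fgf22 in KO lie clear above their WT points.

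Because TPM accounts for length, it allows the members to be ordered. In WT the carrier Fgfbp1 stood first with 514 ± 54.2 TPM (SD, n = 3), followed by Spry1 with 69.3 ± 3.43 TPM and Fgfr2 with 67.3 ± 4.43 TPM, whose libraries overlapped. Dusp6 (39.2 TPM), Fgfr3 (36.0 TPM) and Spred1 (31.7 TPM) came next, each overlapping its neighbour, and were separated from Spry2 (23.2 TPM). Every secreted ligand stood below 1 TPM in WT. In KO, Fgfbp1 was again first with 264 ± 50.2 TPM, but Fgfr2 (50.5 TPM) and Fgfr3 (33.6 TPM) now stood above Spry1 (24.0 TPM) and Dusp6 (15.2 TPM), and the lowest library of each receptor was above the highest library of Spry1. The order is a description of the means and was not tested.

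The ligands were scarce in both genotypes. Fgf22, a ligand of the Fgf7 subfamily that acts on the epithelial forms of FGFRs, had 4, 7 and 3 counts in WT against 85, 41 and 49 counts in KO. The KO libraries were all far above the WT libraries, and KO replicate 1 was the highest. Fgf22 rose from 0.217 ± 0.0963 to 2.93 ± 1.2 CPM (SD, n = 3), a log2 fold change of 3.72 (SE 0.45, edgeR adjusted p = 1.67e-04). The gene is listed on GRCm38 chromosome 10, positions 79754575 to 79757572, and 82 of its 2247 exon bases overlap the opposite-strand gene Rnf126, from which reads cannot be separated if strand was not used.

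Fgf9, a ligand expressed by many epithelia that signals mainly to mesenchymal splice forms, showed the opposite pattern. It had 11.08, 11 and 21 counts in WT and was listed at 0 in all 3 KO libraries. Against the floor of 3 counts it was at least 4.45-fold lower in KO (edgeR adjusted p = 0.00147). Fgf1, which binds all FGFRs, had 12, 7.25 and 15.07 counts in WT against 24, 18.46 and 18 counts in KO. Its groups did not overlap, but the difference of 0.92 on the log2 scale missed the threshold (95% interval 0.10 to 1.75, edgeR adjusted p = 0.0527). Without WT replicate 3 it passed (1.2, adjusted p = 0.0443).

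The summed TPM of the 13 secreted ligands was 0.86, 1.04 and 1.08 in WT and 7.94, 4.31 and 4.81 in KO, so every KO library held more ligand transcript than any WT library. Fgf22 made up between 17.6% and 43.3% of that sum in WT and between 77.5% and 85.9% in KO. The other 10 secreted ligands were untested: Fgf7, the keratinocyte growth factor of stromal cells, reached at most 3.10 counts and Fgf17 at most 4 counts, and 8 were at or under the floor throughout. No gene of the deposited set carried the symbol Fgf2 or Fgf10, so these were not analysed here.

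Of the intracellular FGFs, which bind sodium channels and do not activate FGFRs in the usual way, only Fgf11 was tested. It had 36.33, 21.06 and 21 counts in WT against 23.18, 36.2 and 42.07 in KO, and the groups overlapped (log2 fold change 0.48, 95% interval -0.28 to 1.25, edgeR adjusted p = 0.24). Fgf13 was below the filter, with 2.16, 3.35 and 3.11 counts in WT against 8.14, 6.33 and 8.39 in KO. Its groups did not overlap, and with no filter on low counts it was called higher (log2 fold change 1.5, edgeR adjusted p = 0.039). Under that setting 7 members were higher, the other one gained being the ligand Fgf18, with 0 counts in each WT library and 2 in each KO library, at or under the floor throughout.

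The most abundant member was Fgfbp1, a secreted protein that releases FGFs from heparan sulfate and carries them to their receptors. It had 5142, 6463 and 6179 counts in WT against 3142, 3161 and 4456 in KO. All KO libraries lay below all WT libraries, KO replicate 3 being the nearest. The level fell from 276 ± 35.5 to 180 ± 36.5 CPM (log2 fold change -0.62, SE 0.16, edgeR adjusted p = 0.00917). Its relative Fgfbp3, outside the symbol rule, was also lower, with 354, 471 and 425 counts in WT against 312, 181 and 285 in KO (log2 fold change -0.58, edgeR adjusted p = 0.0398). KO replicate 1 was close to WT replicate 1 for this gene, and the call was lost with the replicate block and without WT replicate 2, WT replicate 3, KO replicate 2 or KO replicate 3.

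Among the receptors, Fgfr1 changed by the largest fold. Fgfr1 encodes the receptor prominent in mesenchymal tissues and had 23, 17 and 21 counts in WT against 304, 183 and 205 counts in KO. The groups were far apart, and KO replicate 1 was again the highest. Fgfr1 rose from 0.946 ± 0.138 to 11.6 ± 3.33 CPM (log2 fold change 3.61, SE 0.26, edgeR adjusted p = 1.22e-05). The gene lies on chromosome 8, positions 25513623 to 25575718. Transcripts annotated on the opposite strand (Gm16159, G630022F23Rik and Gm42922) overlap 164 exon bases of Fgfr1, 998 of Fgfr3 and 710 of Spry1, and their reads cannot be told apart if strand was not used.

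Fgfr2, the main receptor of surface epithelia, had 3337, 3012 and 3452 counts in WT against 3312, 2931 and 2460 counts in KO. The groups overlapped and no difference was detected, with a log2 fold change of -0.06 and a 95% interval from -0.35 to 0.23 (edgeR adjusted p = 0.692). On the TPM scale the difference was -0.42 (limma adjusted p = 0.0157), of which -0.10 remained relative to the shift of all genes. Fgfr2 shares 314 exon bases with Ctbp2 on the same strand.

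Fgfr3, a receptor of epithelia that restrains growth in cartilage, had 1574.45, 1406.47 and 1387.69 counts in WT against 1611.93, 1607.48 and 1585.99 in KO. In CPM the KO libraries lay just above the WT libraries, with means of 67.7 ± 3.78 and 80.4 ± 1.32. The log2 fold change was 0.25 (SE 0.08, edgeR adjusted p = 0.0276), and the call was lost under 8 of 16 alternative settings, including without WT replicate 2, WT replicate 3, KO replicate 2 or KO replicate 3. On the TPM scale its sign turned (-0.09), with 0.23 remaining relative to the shift. Fgfrl1, a receptor-like protein without a kinase domain, had 25, 36 and 23 counts in WT against 68, 45 and 49 in KO, groups that did not overlap (log2 fold change 1.05, SE 0.28, edgeR adjusted p = 0.0112). Fgfr4 never exceeded the floor.

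As a share of the summed TPM of Fgfr1 to Fgfr4, Fgfr2 made up 64.9% ± 2.17 in WT and 56.4% ± 2.98 in KO (SD, n = 3). Fgfr3 made up 34.7% ± 2.17 and 37.9% ± 3.30, and its libraries overlapped. Fgfr1 made up 0.470% ± 0.0485 in WT and 5.63% ± 1.09 in KO, and its libraries did not overlap. Fgfr2 thus remained the most abundant receptor transcript in each of the 6 libraries.

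**Figure D2:**
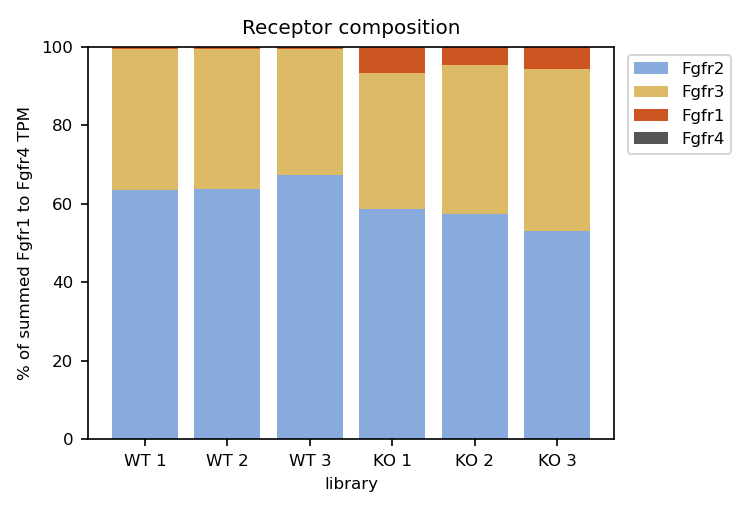
Receptor composition of each library, as the percent of the summed TPM of Fgfr1 to Fgfr4, in stacked bars that start at 0. Fgfr1 is a thin band in WT (0.441% to 0.526%) and a visible one in KO (4.52% to 6.69%).

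Fgfr1 and Fgf22 rose in libraries in which markers of other cell types also moved. Such markers need not come from another tissue. The paper reports metaplasia, a change of cell fate, in the mutant corneal epithelium. Its lineage tracing found the Cre label in the epidermal-like cells, and it proposes that they arise from corneal epithelial progenitors. By fold, the largest shift was that of the 4 epidermal markers. Their summed level was 14.01 to 19.9 TPM in WT and 16808, 8138 and 10400 TPM in KO replicates 1, 2 and 3. The 4 markers of conjunctiva and mucosa had a higher sum in each library. It was 2694 to 3836 TPM in WT and 66765, 62526 and 50794 TPM in KO replicates 1, 2 and 3. KO replicate 1 was the highest for both sums, as for Fgfr1 and Fgf22. KO replicate 2 was the lowest for the epidermal sum, as for these genes, but KO replicate 3 for the mucosal sum. Of 9 keratocyte and fibroblast markers, 6 could be tested, of which 5 were higher in KO and Pdgfra was lower. Of these 6, 4 passed the filter on low counts through mainly 1 genotype, and 31.8% of all tested genes were higher. The summed level of the 9 markers was 5.30 to 6.17 TPM in WT and 15.01 to 27.3 TPM in KO, highest in KO replicate 3. The keratocyte marker Lum was at 0 in WT and at most 0.17 TPM in KO. The summed level of 3 endothelial markers was 0.03 to 0.16 TPM in WT and 0.45 to 0.47 TPM in KO. That rise was carried by Pecam1, the only one tested, with means of 0.087 TPM in WT and 0.423 TPM in KO. Kdr and Tek were at or under the floor in all 6 libraries. Of 7 leukocyte markers 6 could be tested. Of these, 4 were higher, all of which passed the filter through mainly 1 genotype, and Itgam was lower. The summed level of the 7 was 170 to 187 TPM in WT and 112 to 149 TPM in KO. That sum was carried by Itgam, which fell from a mean of 124 to 64.5 TPM, and Cd68 (53.2 and 44.5 TPM, not called), whereas Ptprc, Adgre1, Cd207 and Lyz2 rose from means below 0.2 TPM. Of 3 smooth muscle markers only Acta2 could be tested, and it was higher. Myh11 reached at most 3.01 counts and Des at most 8, and their groups overlapped. Whether cells of any of these types had a part in the rise of Fgfr1 and Fgf22 was not tested. Nor was it tested whether a change of fate of the epithelium itself had a part in that rise.

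The feedback inhibitors included some of the most abundant members in WT. Of 8 members 6 were tested: Spry1, Spry2, Spred1, Spred2 and Dusp6 fell and Spred3 rose. Their summed level was 193, 186 and 174 TPM in WT and 77.2, 56.8 and 82.7 TPM in KO, so the highest KO library was below the lowest WT library. This sum was not corrected for the TPM shift of -0.33 across all genes, and each gene that fell did so by less in CPM. The corneal marker sum moved with the feedback inhibitors, from between 80080 and 84277 TPM in WT to between 11098 and 13492 TPM in KO. Its part in their fall was not tested. In mutant corneas of the same age, the paper reports stronger activation of Erk and of the EGF receptor, by western blot and immunostaining. The lower transcript levels of these inhibitors are therefore not read as lower ERK activity. How the transcripts relate to ERK activity was not tested.

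Spry1, the most abundant Sprouty here, had 1606, 1497 and 1571 counts in WT against 781, 446 and 643 in KO. Every KO library was well below the WT libraries, which lay close together. The level fell from 72.5 ± 2.54 to 31.3 ± 8.61 CPM, leaving 43.2% of the WT mean (log2 fold change -1.21, SE 0.18, edgeR adjusted p = 5.60e-04). Spry2, a Sprouty that acts on FGF and EGF receptors, had 505, 488 and 443 counts in WT against 259, 157 and 262 in KO. Again the groups did not overlap, and KO kept 51.0% of the WT mean (log2 fold change -0.97, SE 0.19, edgeR adjusted p = 0.00224). For both genes KO replicate 2 was the lowest. Spry4 was close to the filter, with 14, 9 and 10 counts in WT against 8, 7 and 6 in KO, and Spry3 was at the floor.

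Spred1, which recruits the Ras GTPase-activating protein neurofibromin to the membrane, had 1964, 2042 and 1806 counts in WT against 779, 746 and 933 in KO. The groups were clearly apart, and KO kept 45.6% of the WT mean (log2 fold change -1.13, SE 0.11, edgeR adjusted p = 4.38e-05). Spred2, a close relative, had 951.47, 920.13 and 944.46 counts in WT against 712.32, 525.51 and 704.55 in KO. It kept 74.4% of its WT level, and the groups did not overlap (log2 fold change -0.43, SE 0.13, edgeR adjusted p = 0.0181). This call was lost with a gene length offset, without WT replicate 1 and without WT replicate 3.

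Spred3, the third relative, went the other way from a low level, with 12.5, 10.07 and 12.73 counts in WT against 45.8, 49.94 and 59.23 in KO. All KO libraries were above all WT libraries (log2 fold change 2.24, SE 0.26, edgeR adjusted p = 1.46e-04). On the TPM scale the difference was 1.18, or 1.51 relative to the shift of all genes, and 202 exon bases overlap the opposite-strand gene Ggn. At 0.683 TPM in WT and 1.67 TPM in KO, Spred3 stayed below Spred1, whose KO mean was 11.3 TPM.

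Dusp6, the ERK phosphatase, had 1059, 1110 and 1034 counts in WT against 375, 405 and 683 in KO. The WT libraries lay close together, and KO replicate 3 was nearer to them than the other KO libraries. The level fell from 49.7 ± 1.69 to 24.4 ± 8.33 CPM, leaving 49.2% of the WT mean (log2 fold change -1.02, SE 0.21, edgeR adjusted p = 0.00264). The gene lies on chromosome 10, positions 99263231 to 99267489.

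The ETS factors differed from each other. Etv5 had 259, 245 and 191 counts in WT against 65, 62 and 136 in KO, a fall without overlap that left 40.8% (log2 fold change -1.29, SE 0.29, edgeR adjusted p = 0.00492). Etv4 had 48, 153 and 66 counts in WT against 107, 100 and 180 in KO, and here the groups overlapped because WT replicate 2 was high. The log2 fold change was 0.64 (95% interval -0.32 to 1.61, edgeR adjusted p = 0.216). Without WT replicate 2 it was 1.29 (edgeR adjusted p = 0.00899). That library was also high for the basal keratin Krt14, with 25395 counts against 5207 and 6712 in WT replicates 1 and 3. The other basal markers differed far less there: Krt5 had 28412 CPM against 26676 and 25787, and Trp63 had 286 CPM against 278 and 231. Between genotypes Krt14 was higher in KO, Krt5 was lower and Trp63 was not called. A link between Etv4 and Krt14 was not tested. The difference between the changes of Etv4 and Etv5 was not tested.

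**Figure D3:**
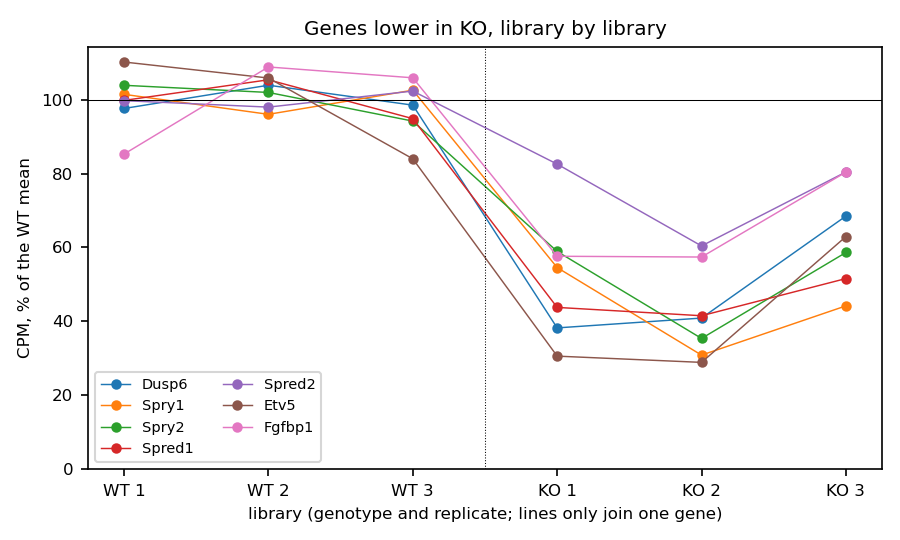
CPM of 7 members that were lower in KO, in percent of the WT mean of each gene, with 1 point per library and lines that join the points of a gene. WT points lie between 84.0% and 110% and KO points between 28.9% and 82.5%, with KO replicate 3 above the other KO libraries for Dusp6, Etv5, Spred1 and Fgfbp1.

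The KO libraries did not rank alike for all of these genes. Relative to the WT mean, Dusp6 was at 38.2%, 40.9% and 68.5% in KO replicates 1, 2 and 3, and Etv5 was at 30.6%, 28.9% and 62.9%. For both, KO replicate 3 stood nearest to WT. Spry1 was instead highest in KO replicate 1, at 54.5%, and lowest in KO replicate 2, at 30.8%. Spred1 varied least between KO libraries, by 1.24-fold, and Etv5 most, by 2.18-fold.

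**Figure D4:**
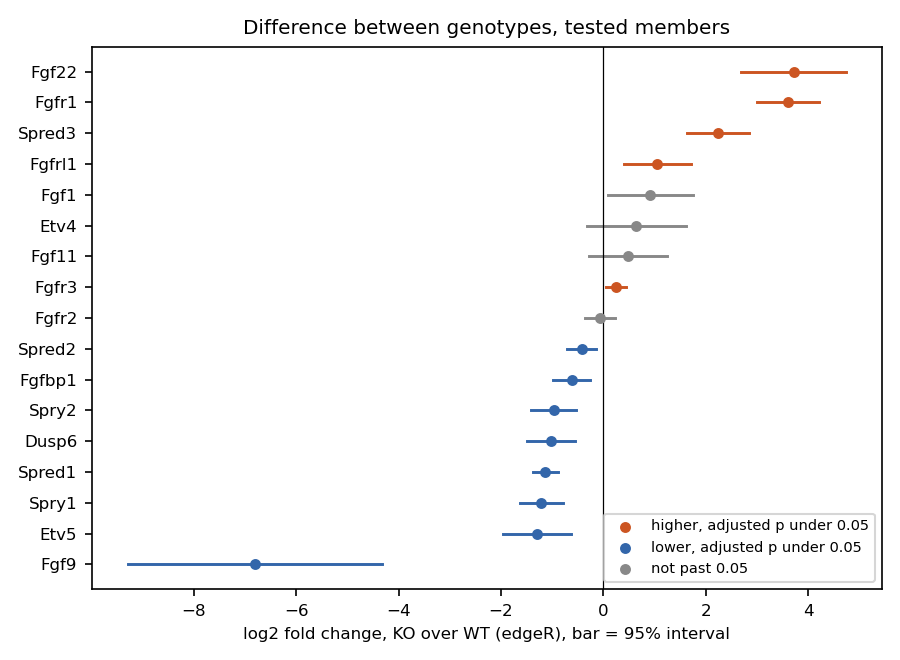
Log2 fold change of KO over WT for the 17 tested members, with bars giving the 95% interval of the edgeR estimate. Fgf22 (3.72) and Fgfr1 (3.61) lie furthest to the right, 5 feedback inhibitors, Fgfbp1 and Etv5 lie below 0, and the value of Fgf9 has no meaning as a size because its KO libraries are at 0.

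The proximal promoters are shown for the 4 feedback inhibitors that kept the smallest share of their WT level and for the ligand that rose, so that genes moving in opposite directions can be compared. Sequences come from RefSeq on GRCm38.p6 and run from 250 bases before to 50 bases after the start of transcription, 5′ to 3′ on the strand of the gene. An entry was found for 24 of the 33 members, with 32 entries in all, so some members had more than 1 listed start. Here 1 window is printed per gene. Those of Spry1 and Fgf22 lie inside the listed bounds of the gene, so sequence before an earlier start is not shown. The positions are chr10:99262981-99263280 (plus strand) for Dusp6, chr3:37639697-37639996 (plus) for Spry1, chr14:105896770-105897069 (minus) for Spry2, chr2:117120821-117121120 (plus) for Spred1 and chr10:79754859-79755158 (plus) for Fgf22. Capitals mark the GC box GGGCGG, the CCAAT box and the ETS core GGAAG on either strand.
Dusp6: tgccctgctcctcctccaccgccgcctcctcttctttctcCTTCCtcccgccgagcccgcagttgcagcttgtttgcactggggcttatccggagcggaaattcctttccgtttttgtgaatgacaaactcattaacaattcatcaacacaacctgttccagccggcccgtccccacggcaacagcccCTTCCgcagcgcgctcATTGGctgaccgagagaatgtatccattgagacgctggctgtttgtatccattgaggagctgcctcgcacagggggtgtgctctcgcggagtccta
Spry1: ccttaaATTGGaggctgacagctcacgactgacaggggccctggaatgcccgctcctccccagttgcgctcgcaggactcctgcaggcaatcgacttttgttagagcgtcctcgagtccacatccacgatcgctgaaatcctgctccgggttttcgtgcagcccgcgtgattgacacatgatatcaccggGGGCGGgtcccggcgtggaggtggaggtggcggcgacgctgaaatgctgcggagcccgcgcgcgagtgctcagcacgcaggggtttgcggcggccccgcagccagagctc
Spry2: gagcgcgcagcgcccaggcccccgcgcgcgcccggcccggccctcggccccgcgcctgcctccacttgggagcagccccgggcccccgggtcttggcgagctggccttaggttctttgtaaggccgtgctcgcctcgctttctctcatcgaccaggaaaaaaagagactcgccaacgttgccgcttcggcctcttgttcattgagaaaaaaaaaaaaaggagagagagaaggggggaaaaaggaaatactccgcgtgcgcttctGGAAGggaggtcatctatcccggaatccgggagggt
Spred1: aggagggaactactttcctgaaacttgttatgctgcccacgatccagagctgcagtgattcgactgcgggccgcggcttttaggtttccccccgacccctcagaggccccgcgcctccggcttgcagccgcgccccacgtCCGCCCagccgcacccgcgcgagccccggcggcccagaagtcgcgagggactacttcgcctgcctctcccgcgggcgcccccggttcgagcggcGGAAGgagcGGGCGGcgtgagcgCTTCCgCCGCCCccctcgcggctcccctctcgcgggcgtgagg
Fgf22: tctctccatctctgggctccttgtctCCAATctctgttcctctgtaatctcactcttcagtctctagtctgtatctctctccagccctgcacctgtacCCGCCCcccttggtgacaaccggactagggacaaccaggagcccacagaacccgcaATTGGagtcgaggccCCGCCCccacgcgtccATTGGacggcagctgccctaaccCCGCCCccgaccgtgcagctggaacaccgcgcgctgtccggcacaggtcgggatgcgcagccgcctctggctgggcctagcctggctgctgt
The Dusp6 promoter held the ETS core at 2 places and a CCAAT box at 1, and its GC content was 57.3%. Spry1 held 1 GC box and 1 CCAAT box, Spry2 held 1 ETS core, and Spred1 held 3 GC boxes and 2 ETS cores with a GC content of 72.3%. Fgf22 held 3 GC boxes and 3 CCAAT boxes. These letters are common: the GC box stood in 35.7% of all 32851 promoters of this length, CCAAT in 37.4% and GGAAG in 71.4%.

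Longer motifs were also searched on both strands. The ETS site CCGGAAG, which contains GGAAG, stood in 8.86% of all promoters and among the members in Fgfrl1. The AP-1 site TGANTCA stood in 7.81% of all and in Fgf12 and Fgf13, and the κB motif, to which Rela binds, in 8.46% of all and in Fgf13, Fgf18, Fgfr3 and Fgfr4. TGACGTCA (1.79% of all) and the CArG box (1.63% of all) were in no member promoter, and TATAAA (13.6% of all) was in 4. No exact match to these longer motifs was in the 5 windows printed here, and the κB letters searched are not given. Near matches were not counted: the Dusp6 window holds cggaaattcc, which resembles the κB letters given in the paper. A match is a description of letters, and no match says only that the letters are not in this window.

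The rest of the pathway was read from a list of 95 other genes, of which 92 were tested: 33 were higher in KO, 27 were lower and 32 passed in neither direction, with a median log2 fold change of -0.02. Read against the 31.8% higher and 30.2% lower among all tested genes, these counts lie near the background, and the counts of the smaller groups below are given as descriptions of their members. Of the 92 tested genes, 12 passed the filter on low counts through mainly 1 genotype, among them Sdc3, Dusp4 and Fosl1. All of these counts therefore describe the genes that passed. Of 15 tested co-receptors and heparan sulfate proteoglycans, 7 were higher and 5 lower. The proteoglycan Sdc1, the main syndecan of epithelia, had 34202, 33407 and 30248 counts in WT against 15861, 16213 and 16578 in KO, a fall without overlap (log2 fold change -0.90, edgeR adjusted p = 1.18e-04). Sdc3, a syndecan best known from nerve and muscle, rose from 2, 3 and 6 counts to 123, 91 and 92 (4.86). Flrt2 and Flrt3, transmembrane proteins that can bind FGFRs, also rose without overlap, Flrt2 from 24, 72 and 62 counts to 505, 439 and 715 (3.49) and Flrt3 from 18, 24 and 30 counts to 177, 206 and 223 (3.17). The glypican Gpc2 fell (-1.71). Klb, the co-receptor of endocrine FGFs, had at most 6 counts and was untested.

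Of 15 genes of heparan sulfate synthesis and editing, 8 were higher and 4 lower. Hs3st3b1, a 3-O-sulfotransferase, had 1889.9, 1413.77 and 1526.4 counts in WT against 260.4, 250.51 and 207.89 in KO (-2.64). Of 14 adaptors and proximal signalling genes, 2 were higher and 5 lower. Among them Frs2, the docking protein of FGFRs, fell from 1443, 1188 and 1294 counts to 943, 867 and 884, groups that did not overlap (-0.43, edgeR adjusted p = 0.00479, a call lost with the gene length offset). Of 15 genes of the Ras-MAPK cascade, 2 were higher and 7 lower. Nf1, neurofibromin, which is recruited by Spred proteins, had 1012, 862 and 914 counts in WT against 229, 215 and 263 in KO (-1.87, edgeR adjusted p = 4.87e-06).

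Of 15 other MAPK feedback inhibitors, 6 were higher and 2 lower. Dusp4, a nuclear ERK phosphatase, had 2, 3 and 0 counts in WT against 15, 24 and 34 in KO, which is at least 8.73-fold higher against the floor of 3 counts. Dusp8, a phosphatase of JNK and p38, rose from 19, 16 and 15 counts to 390.45, 241 and 410 (4.48). Dusp5, the other nuclear ERK phosphatase, had 801, 888 and 1143 counts in WT against 900, 770 and 1223 in KO, and the groups overlapped (0.14, edgeR adjusted p = 0.565). Il17rd, the transmembrane FGF inhibitor Sef, overlapped too (-0.36, adjusted p = 0.279). Lrig1, an inhibitor of receptor tyrosine kinases, fell from 6451.7, 5115.65 and 5427.72 counts to 943.9, 1195.26 and 959.43 (-2.35).

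Of 17 other transcription factors and targets downstream of ERK, a list that includes Elk1, Elk3 and Elk4, 8 were higher and 3 lower. Fosl1, an AP-1 subunit, was at or under 1.14 counts in WT and had 119.94, 40.52 and 243.03 in KO, at least 48.3-fold higher against the floor. Egr1, an immediate early gene, had 648, 344 and 1051 counts in WT against 1818, 1014 and 2330 in KO. In CPM its groups did not overlap, although WT replicate 3 and KO replicate 2 were nearly equal (1.44, edgeR adjusted p = 0.0146). Ccnd1, cyclin D1, moved down, from 9350.73, 10178.9 and 7131.06 counts to 3169.74, 2505.7 and 3818.04 (-1.38).

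**Figure D5:**
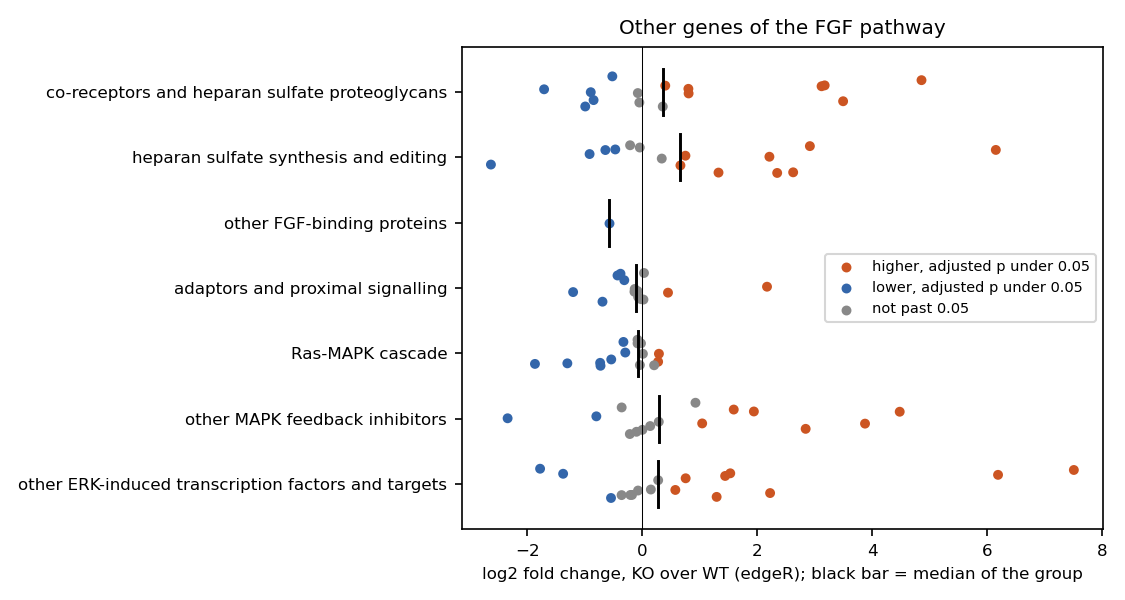
Log2 fold change of KO over WT for the 92 tested genes of the wider pathway list, with 1 point per gene, coloured by the call, and a black bar at the median of each group. Most groups hold genes on both sides of 0, from -2.64 for Hs3st3b1 to 7.51 for Fosl1, a gene at the floor in WT.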

How the data were processed

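Total RNA of separated corneal epithelium was depleted of ribosomal RNA and sequenced as short single-end reads on a BGI instrument according to the study's methods, whereas the labels name an Illumina kit. The authors aligned reads with Bowtie2 2.2.5 and estimated gene levels with RSEM 1.2.12. They deposited estimated counts, FPKM and TPM per gene and library. The labels name the build mm9, but the chromosome accessions of the deposited table are those of GRCm38. The authors' own columns of log2 fold changes, p-values and q-values between genotypes were not used. RSEM divides reads shared by several genes, and 11 members had counts that were not whole. Whether counting used strand is not stated.

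Each library was assigned to WT or KO by its label. Rounded counts went into edgeR 4.0.16 under R 4.3.3, using TMM, filterByExpr (minimum count 10) and the quasi-likelihood test with genotype as the term, and Benjamini-Hochberg adjustment over 13305 genes. SEs are the absolute log2 fold change over the square root of F. Where 1 group was at or under 3 counts in every library, a bound against 3 counts is given. Library totals (20158404 to 20880347 counts) limit statements on genes near that floor. The tests were tried on simulated data.

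The members, lists and marker genes were chosen with earlier results of these data known. Members with a mean of at least 10 counts in 1 genotype are given by library. From the pathway list, the 5 largest rises and 5 largest falls among called genes without overlap and with a mean of at least 100 counts in the higher group are named, besides Dusp4, Dusp5, Egr1, Il17rd, Frs2, Klb, Sdc1 and Fgfbp3. Results were recomputed with DESeq2 1.42.0, total counts, RLE factors, no filter, a mean count of at least 50, limma 3.58.1 on log2(FPKM + 1) and log2(FPKM + 0.1), a gene length offset, a replicate block and leaving out each library. limma on log2(TPM + 0.1) was added after seeing the data. Exon overlaps were read from GENCODE M21.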

Additional observations from a re-analysis of the deposited data

How the results depend on the processing

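Of the 16 alternatives, the following moved a count by over 1.5 times. With a mean count of at least 50, 2 members were higher in KO, because 6 tested members were too low for that fit, and 3 met the threshold of the study. On log2(TPM + 0.1), 3 members were higher. With DESeq2, 8 members met the threshold of the study, and leaving out 1 library gave between 2 and 6. The pathway list had 48 lower genes on log2(TPM + 0.1), the scale on which the median of all genes was -0.33.

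Fgfr2 turned to 0.16 with the gene length offset and lay between -0.17 and 0.048 when 1 library was left out. Fgfr3 turned to -0.093 on log2(TPM + 0.1). Dusp5 turned to -0.23 with the gene length offset and to -0.21 on log2(TPM + 0.1), and lay between -0.065 and 0.32 when 1 library was left out. None of these turned values of Fgfr2, Fgfr3 and Dusp5 passed the threshold, and the cause was not tested. Fgf1 passed with the gene length offset (1.08, adjusted p = 0.0285), and Fgfrl1 missed on log2(TPM + 0.1) (0.68, adjusted p = 0.0538).

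The replicate numbers only name the samples. The correlations of same-numbered deviations were 0.03, -0.01 and 0.06, so the numbers were not read as pairs. With the replicate block, 5 members were higher and 8 lower, 5 met the threshold of the study, and the pathway list had 33 higher and 26 lower genes. Fgfbp3 missed the threshold there (adjusted p = 0.0614). Counts near the floor of 3 limit what can be said of the 16 untested members.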
